A study of Mus musculus with 27 samples.

Results

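The cell-cycle genes described here are 34 mouse genes whose products act in DNA replication, in G2 and in mitosis. They were chosen by gene symbol, with kinesin motor genes left out of the list, although Cenpe, which is on it, encodes a kinesin-type motor of the kinetochore. All 34 were present among the 55367 named genes of the dorsal root ganglion table, and all 34 passed the filter on low counts and were among the 18517 genes tested. For this account 11 of them were grouped as S phase genes (the origin helicase, its sliding clamp and nucleotide supply) and 23 as mitosis genes (cyclins and Cdk1, mitotic kinases, kinetochore, spindle, anaphase-promoting complex, and chromosome structure and surface).

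The 15 libraries came from polyadenylated RNA of L4-L5 dorsal root ganglia, where sensory neurons sit among glia, vessels and resident immune cells. There were 5 groups of 3 libraries: Ptpn2 KO mice with sciatic nerve injury, Ptpn2 KO mice with sham surgery, wild type mice with injury and RU521, wild type mice with injury, and wild type mice with sham surgery (called intact in the sample titles). RU521 inhibits the DNA sensor cGAS and was injected into the sciatic nerve, and tissue was taken 3 days after injury. The series text calls this tissue nerve and the sample labels call it ganglion. The sources used here do not give strain, age, the driver of the ganglion knockout, the vehicle of RU521 or whether replicates are separate animals, and the p-values therefore reflect library-to-library spread that may be technical.

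As background, a dividing cell first loads the Mcm2 to Mcm7 helicase at replication origins, copies its DNA with Pcna as the sliding clamp, and then enters mitosis when Cdk1 is switched on by cyclins A and B. Aurora, Polo-like and checkpoint kinases then attach chromosomes to the spindle, and Cdc20 with the anaphase-promoting complex ends mitosis by marking cyclins for destruction. The transcripts of these genes rise and fall with the cycle and are low in cells that have left it. Adult sensory neurons do not divide, and in a ganglion these transcripts are commonly read as a mark of dividing non-neuronal cells.

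Promoters of cell-cycle genes are known for 3 short motifs, the E2F site of S phase genes, and the CHR element and the CCAAT box of genes of G2 and mitosis. The motifs searched were TTCCCGC or TTGGCGC (E2F), TTTGAA or TTTAAA (CHR) and CCAAT, on both strands, from 250 bases before to 50 bases after the start of each gene in RefSeq's promoter table (GRCm38.p6). A TTGGCGC match on the other strand can share its last bases with a CCAAT box. Of the 34 genes, 30 matched the table, which left out Aurkb, Ccna2, Mcm4 and Tpx2. The E2F letters were found in 26.7% of the 30 (8 genes), in 5 of the 10 S phase genes and in 3 of the 20 mitosis genes, against 7.79% of all 27025 genes of the table. CHR letters were found in 70.0% of the 30 (21 genes), in 4 S phase and 17 mitosis genes, against 30.6% of all genes. A CCAAT box was found in 80.0% of the 30 (24 genes), in 8 S phase and 16 mitosis genes, against 41.1% of all genes. CCAAT and CHR letters occurred together in 60.0% of the 30 (18 genes), in 3 S phase and 15 mitosis genes, against 12.2% of all genes. No match was found for Nuf2, Nusap1 and Tyms. A match is a description of the letters only.

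The 200 bases before the start are shown for 8 genes, 5′ to 3′ along the gene's own strand, with matches on either strand in capitals. The first 3 are S phase genes with E2F letters, Pcna is the S phase gene with the smallest change after injury, and the last 4 are mitosis genes described in full below. A match on the other strand appears as its reverse complement. In Ccnb1 the E2F letters, on the other strand, overlap a CCAAT box, and the CHR letters of Mcm5 lie farther from the start than the stretch shown. The windows are chr8:75109309-75109508 (plus strand) for Mcm5, chr1:128359706-128359905 (minus strand) for Mcm6, chr7:102441495-102441694 (plus strand) for Rrm1, chr2:132253181-132253380 (minus strand) for Pcna, chr13:100786487-100786686 (minus strand) for Ccnb1, chr4:118437344-118437543 (minus strand) for Cdc20, chr11:99024190-99024389 (minus strand) for Top2a and chr7:135716380-135716579 (minus strand) for Mki67.
Mcm5: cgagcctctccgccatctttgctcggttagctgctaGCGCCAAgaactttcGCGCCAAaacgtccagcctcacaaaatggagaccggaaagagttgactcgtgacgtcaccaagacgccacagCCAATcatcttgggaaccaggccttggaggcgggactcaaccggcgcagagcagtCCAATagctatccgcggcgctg
Mcm6: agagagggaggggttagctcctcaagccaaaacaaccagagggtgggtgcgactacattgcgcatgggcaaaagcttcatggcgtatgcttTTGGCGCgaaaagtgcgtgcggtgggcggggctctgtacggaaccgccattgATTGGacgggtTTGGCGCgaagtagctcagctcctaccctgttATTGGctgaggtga
Rrm1: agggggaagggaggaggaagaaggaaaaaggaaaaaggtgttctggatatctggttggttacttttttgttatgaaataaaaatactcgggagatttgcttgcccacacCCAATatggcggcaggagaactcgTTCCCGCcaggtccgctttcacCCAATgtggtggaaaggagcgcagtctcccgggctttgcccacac
Pcna: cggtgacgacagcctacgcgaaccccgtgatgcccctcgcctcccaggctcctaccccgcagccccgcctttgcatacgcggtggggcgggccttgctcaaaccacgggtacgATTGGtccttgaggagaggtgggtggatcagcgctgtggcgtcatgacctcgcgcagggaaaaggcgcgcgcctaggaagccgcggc
Ccnb1: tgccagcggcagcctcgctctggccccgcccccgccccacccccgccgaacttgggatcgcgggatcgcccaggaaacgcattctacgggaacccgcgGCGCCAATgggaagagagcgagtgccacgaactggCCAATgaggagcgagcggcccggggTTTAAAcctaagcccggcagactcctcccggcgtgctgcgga
Cdc20: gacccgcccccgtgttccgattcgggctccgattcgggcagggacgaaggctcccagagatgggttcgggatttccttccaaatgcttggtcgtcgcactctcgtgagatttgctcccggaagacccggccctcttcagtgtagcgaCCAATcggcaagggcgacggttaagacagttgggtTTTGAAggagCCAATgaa
Top2a: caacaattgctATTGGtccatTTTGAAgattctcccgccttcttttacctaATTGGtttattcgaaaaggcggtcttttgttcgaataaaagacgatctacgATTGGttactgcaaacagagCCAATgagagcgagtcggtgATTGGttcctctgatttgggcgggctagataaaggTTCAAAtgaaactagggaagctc
Mki67: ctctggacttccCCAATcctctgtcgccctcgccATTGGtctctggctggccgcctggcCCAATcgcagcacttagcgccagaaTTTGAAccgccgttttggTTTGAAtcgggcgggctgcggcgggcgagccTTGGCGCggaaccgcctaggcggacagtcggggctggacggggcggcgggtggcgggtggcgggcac

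**Figure D1:**
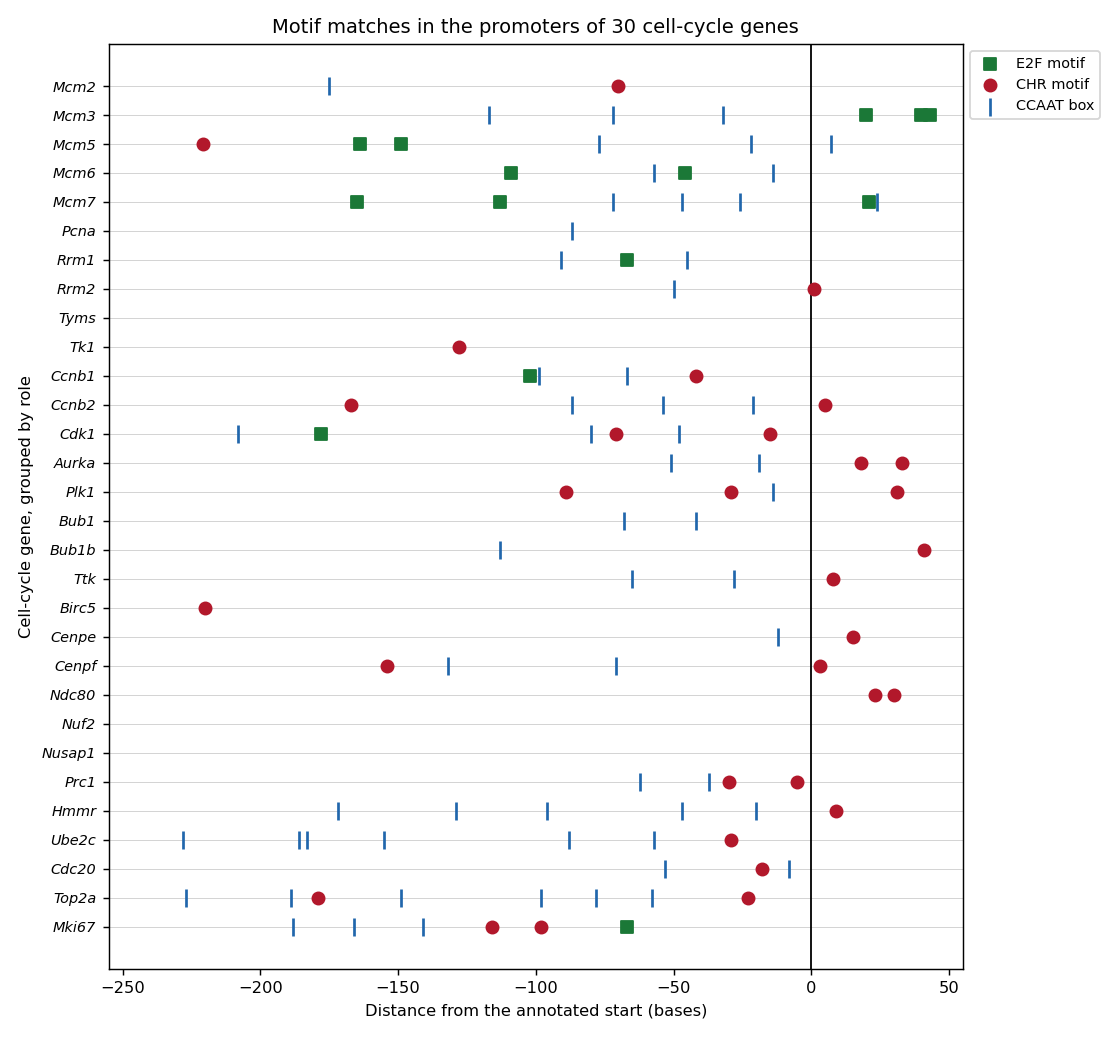
Positions of E2F motifs (squares), CHR motifs (circles) and CCAAT boxes (bars) relative to the annotated start (0, in bases) for the 30 genes with a promoter entry, grouped by role from the origin helicase at the top to Mki67 at the bottom. CHR matches lie in 17 of 20 mitosis genes and E2F matches in 5 of 10 S phase genes, and the rows of Tyms, Nuf2 and Nusap1 are empty; Mcm7 and Prc1 have more than 1 annotated start and their matches are drawn together.

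Libraries held 14813365 to 22414750 counts, 26235 to 34340 detected genes and 4.87% to 18.6% mitochondrial counts, and 3 counts in a library, taken as the floor of detection, were worth 0.131 to 0.208 CPM. Levels are CPM, counts scaled to library size with TMM factors, and the floor covers counting error only. Wild type sham libraries did not form 1 tight group. Replicates 1 and 3 had 26235 and 26802 detected genes and 4.87% and 6.52% mitochondrial counts, against 34115 genes and 15.2% in replicate 2. Replicate 1 of the RU521 group also stood apart, with 28803 detected genes and 7.83% mitochondrial counts. Ptpn2, the targeted gene, had 24.1, 26.5 and 18.5 CPM in knockout injured libraries, against 15.9, 19.8 and 17.5 CPM in injured wild type. After sham surgery it had 15.8, 12.1 and 10.5 CPM in knockout libraries, against 11.6, 19.3 and 12.9 CPM in wild type. Its count was thus not lower in the libraries labelled Ptpn2 KO after injury, and since the deleted exons and the cells targeted are not given, the count does not check the labels. Below, "knockout" means the libraries labelled Ptpn2 KO. Summed markers of sensory neurons ran from 3513 to 7998 CPM and those of satellite glia from 6666 to 10971 CPM over the 15 libraries.

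Sciatic injury in wild type ganglia was accompanied by higher transcripts of nearly the whole list. Of the 34 genes, 31 rose and 0 fell (edgeR's quasi-likelihood test, adjusted by Benjamini-Hochberg over the 18517 genes, threshold 0.05), where 8.6% of all genes tested rose and 7.98% fell. The median log2 fold change was 1.65, from 0.44 for Pcna to 2.80 for Ccnb1, and the median of all genes tested was 0.00. Mcm4, Cenpf and Ndc80 did not pass, with log2 fold changes of 0.77 ± 0.26, 1.05 ± 0.43 and 1.61 ± 0.57 (SE) and edgeR adjusted p of 0.0512, 0.107 and 0.0638. In 33 of the 34 genes every injured library lay above every sham library, which held for 17.5% of all genes tested. The exception was Cenpf, where sham replicate 2 had 10.8 CPM and lay among the injured libraries at 8.64 to 14.5 CPM. In bulk tissue, more dividing cells and more of these transcripts per dividing cell cannot be told apart.

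The count rests on sham replicates 1 and 3, whose summed levels were the lowest of the 15 libraries. Summed over the 34 genes, the level was 929, 1065 and 1004 CPM in injured libraries, against 253, 506 and 279 CPM in sham libraries 1, 2 and 3. Without sham replicate 1, 15 genes rose, without replicate 3, 14, and without replicate 2, 33. Of all genes, 1615 of 19481, 1240 of 19456 and 6513 of 19225 passed in either direction in these 3 runs. With replicate 2 as the only sham library, assumed to vary like the other groups, 3 genes (Mcm2, Mcm6 and Prc1) rose, where 7.28% of the 21781 genes tested passed in either direction, and the median log2 fold change was 1.05. With the number of detected genes per library as a covariate, 8 genes rose, where 4.58% of all genes tested passed in either direction, and the median was 0.91. The sign of the change was positive for the 31 genes in each of these settings.

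The origin helicase is the ring of Mcm2 to Mcm7 that opens DNA at replication origins. After injury 5 of its 6 subunits rose, with a median log2 fold change of 1.55, from 0.77 for Mcm4 to 1.83 ± 0.26 for Mcm2 (edgeR adjusted p = 0.000912). Mcm6, on chromosome 1 (128331590 to 128359664, minus strand, GRCm38), had the highest level per length of the ring. It had 53.1, 71.2 and 73.2 CPM in injured ganglia, against 18.3, 27.9 and 20.1 CPM in sham ganglia. The groups did not overlap, and the log2 fold change was 1.58 ± 0.25 (edgeR adjusted p = 0.00185). Mcm2 had 32.6, 37.0 and 40.7 CPM in injured ganglia, against 10.5, 10.3 and 10.1 CPM in sham ganglia. Its 3 sham libraries were level with each other, unlike those of most of the list. Mcm4 had 35.2, 37.9 and 29.4 CPM in injured ganglia, against 21.3, 15.003 and 23.8 CPM in sham ganglia, where replicate 2 was the lowest sham library and not the highest.

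The clamp and the enzymes of nucleotide supply all rose (5 of 5 genes, median 1.36). Pcna, the clamp that holds DNA polymerase on its template, lies on chromosome 2 (132249162 to 132253314, minus strand) and had 50.7, 60.7 and 58.1 CPM in injured ganglia, against 38.6, 47.3 and 39.5 CPM in sham ganglia. Its groups did not overlap, but its log2 fold change of 0.44 ± 0.14 (edgeR adjusted p = 0.0397) was the smallest of the list, with a 95% interval from 0.15 to 0.73. Rrm2, the subunit of ribonucleotide reductase whose level limits the enzyme in cycling cells, had the largest change of this group at 1.97 ± 0.40. It had 76.2, 79.8 and 75.5 CPM in injured ganglia, against 12.8, 33.2 and 13.4 CPM in sham ganglia. The partner subunit Rrm1 averaged 64.4 ± 8.23 CPM in injured and 28.6 ± 1.22 CPM in sham ganglia (SD, n = 3 each). Tyms, which makes thymidylate, and Tk1, which salvages thymidine, changed by 1.64 ± 0.34 and 1.36 ± 0.35 on the log2 scale.

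Cyclins and Cdk1 had the highest median of any role, 2.13, and all 4 rose. Ccnb1, cyclin B1, the Cdk1 partner that drives entry into mitosis, lies on chromosome 13 (100778650 to 100786570, minus strand). It had 28.02, 30.5 and 33.8 CPM in injured ganglia, against 2.13, 7.66 and 3.63 CPM in sham ganglia. The lowest injured library stood above the highest sham library, and the log2 fold change of 2.80 ± 0.51 was the largest of the 34 genes (edgeR adjusted p = 0.00316). Ccnb2, cyclin B2, on chromosome 9 (70407692 to 70421547, minus strand), had 34.6, 35.9 and 39.3 CPM in injured ganglia, against 5.10, 17.7 and 4.44 CPM in sham ganglia, a log2 fold change of 2.02 ± 0.48 (edgeR adjusted p = 0.0118). Ccna2, cyclin A2, which acts from S phase into mitosis, averaged 35.1 ± 6.06 CPM in injured and 7.49 ± 5.18 CPM in sham ganglia. Cdk1, the kinase itself, averaged 20.8 ± 1.18 CPM in injured and 6.69 ± 4.54 CPM in sham ganglia, the smallest change of the group at 1.65 ± 0.41.

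The mitotic kinases were grouped with the passenger subunit Birc5, and all 7 genes of that group rose (median 1.79). Birc5, survivin, which guides Aurora B to chromosomes, lies on chromosome 11 (117849251 to 117855743, plus strand) and had 32.3, 34.1 and 34.5 CPM in injured ganglia, against 5.45, 16.5 and 7.43 CPM in sham ganglia. The groups did not overlap, and its log2 fold change was 1.79 ± 0.37 (edgeR adjusted p = 0.00617). Plk1, the Polo-like kinase of spindle and cytokinesis, changed most (2.14 ± 0.43) and Aurka, the centrosomal Aurora kinase, least (1.12 ± 0.27). Plk1 had 13.6, 18.4 and 15.2 CPM in injured ganglia, against 2.18, 6.16 and 2.51 CPM in sham ganglia. The checkpoint kinases Bub1 and Ttk passed narrowly, with edgeR adjusted p of 0.0496 and 0.0485. Ttk was the least counted gene, with 5.55, 3.42 and 4.13 CPM in injured ganglia, against 0.04, 2.24 and 1.02 CPM in sham ganglia, and sham replicate 1 was under the floor of 3 counts.

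Of the 4 kinetochore genes, which link chromosomes to spindle fibres, 2 rose (Nuf2 and Cenpe), and log2 fold changes ran from 1.05 for Cenpf to 1.61 for Ndc80. Nuf2, a subunit of the Ndc80 complex, lies on chromosome 1 (169497934 to 169531464, minus strand) and had 11.2, 12.5 and 10.1 CPM in injured ganglia, against 2.61, 6.35 and 2.35 CPM in sham ganglia. The groups did not overlap and the log2 fold change was 1.59 ± 0.44 (edgeR adjusted p = 0.0235). Its partner Ndc80 had 10.3, 7.88 and 10.4 CPM in injured ganglia, against 1.31, 6.47 and 1.66 CPM in sham ganglia. Here sham replicate 2 came close to the lowest injured library.

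Spindle genes rose in 4 of 4 cases (median 1.64). Nusap1, which bundles microtubules around chromosomes, lies on chromosome 2 (119618298 to 119651244, plus strand) and had 25.5, 33.5 and 32.7 CPM in injured ganglia, against 6.01, 17.7 and 5.56 CPM in sham ganglia, a log2 fold change of 1.66 ± 0.40 (edgeR adjusted p = 0.0126). Prc1, which crosslinks the central spindle before the cell divides, changed most at 2.11 ± 0.30 (edgeR adjusted p = 0.000912). It had 25.8, 28.9 and 28.04 CPM in injured ganglia, against 5.14, 9.40 and 4.76 CPM in sham ganglia. Prc1 shares 11.1% of its exonic length with Rccd1 on the other strand, and reads were counted without strand, so that its counts are less certain. Tpx2, the activator of Aurora A, changed least in this role at 1.42 ± 0.36.

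Both genes of the anaphase-promoting complex rose. Cdc20, its mitotic activator, lies on chromosome 4 (118432901 to 118437352, minus strand) and had 24.1, 24.8 and 24.8 CPM in injured ganglia, against 2.92, 12.2 and 4.65 CPM in sham ganglia, a log2 fold change of 1.91 ± 0.46 (edgeR adjusted p = 0.0125). Ube2c, its ubiquitin-conjugating enzyme, averaged 30.6 ± 4.03 CPM in injured and 8.999 ± 8.40 CPM in sham ganglia (log2 fold change 1.78 ± 0.48). Ube2c shares 22.8% of its exonic length with Tnnc2 on the other strand, and Ccna2 12.5% with Exosc9. Mcm7 overlaps Ap4m1 and Cops6 and hosts Mir25 and Mir93. In all, 9 of the 34 genes share exonic bases with another gene, and for 4 of them the shared part is over 10% of their length.

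Top2a and Mki67 completed the list. Top2a, the topoisomerase that untangles sister chromosomes, on chromosome 11 (98992943 to 99024189, minus strand), had 51.7, 60.8 and 58.4 CPM in injured ganglia, against 6.58, 35.2 and 11.2 CPM in sham ganglia. Mki67, the Ki-67 protein that coats mitotic chromosomes and marks cycling cells, on chromosome 7 (135689784 to 135716361, minus strand), had 50.5, 56.7 and 57.1 CPM in injured ganglia, against 8.36, 30.01 and 10.8 CPM in sham ganglia. In both, sham replicate 2 lay well above its partners yet below every injured library. The log2 fold changes were 1.70 ± 0.47 for Top2a and 1.75 ± 0.41 for Mki67 (edgeR adjusted p = 0.0241 and 0.0111). With replicate 2 as the only sham library they were 0.74 and 0.91, and neither passed (edgeR adjusted p = 0.357 and 0.232). Ccnb1 did not pass in that setting either (log2 fold change 2.05, edgeR adjusted p = 0.104).

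**Figure D2:**
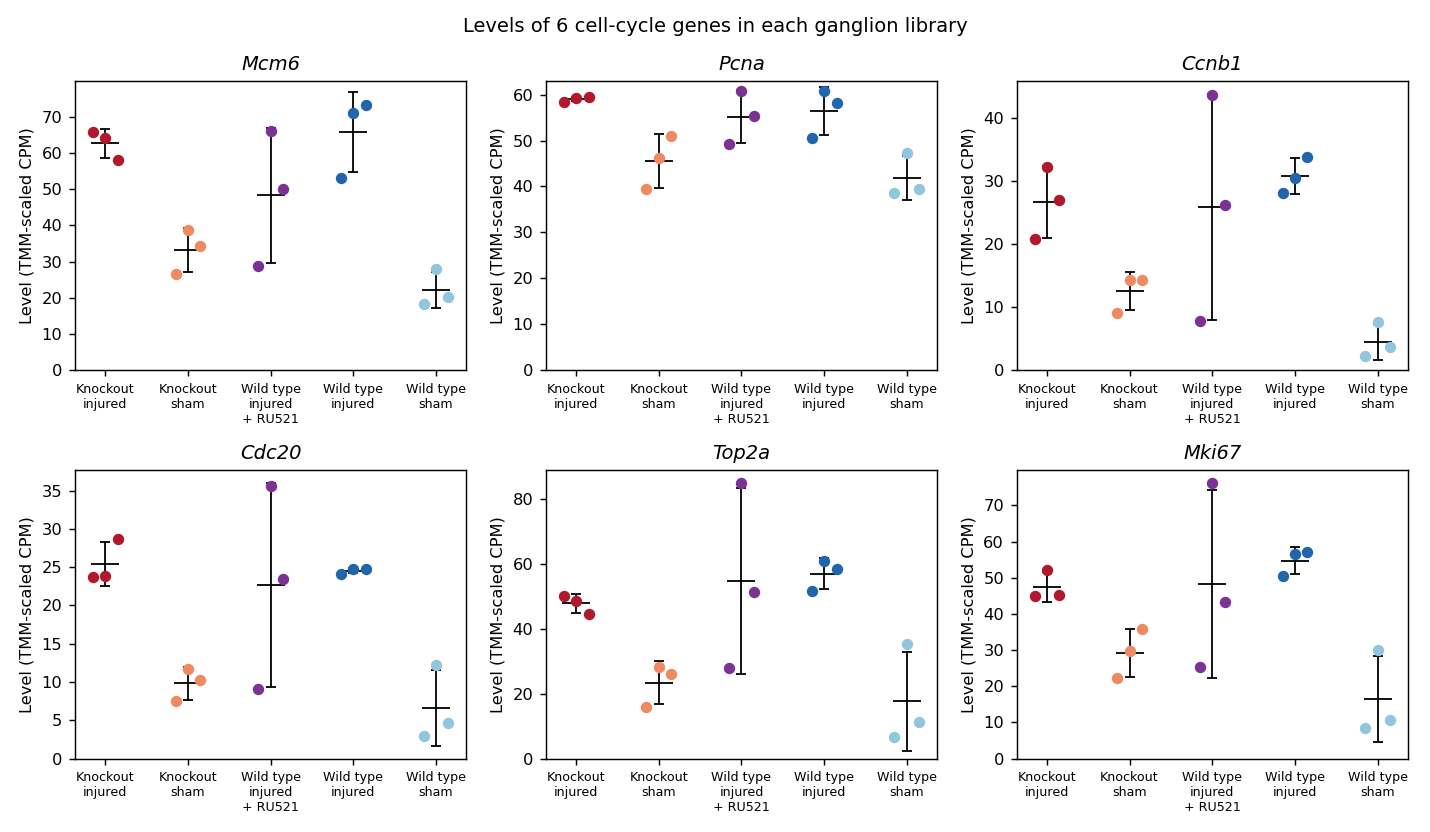
TMM-scaled CPM of Mcm6, Pcna, Ccnb1, Cdc20, Top2a and Mki67 (vertical axis, linear from 0) in each of the 15 ganglion libraries, 1 point per library in order of replicate number, with horizontal bars for the mean and error bars for the SD (n = 3). Injured wild type libraries stand above all wild type sham libraries in each panel, Pcna moves least, and RU521 replicate 1 lies near the sham libraries except for Pcna while replicate 2 is the highest in each panel but that of Mcm6.

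Per length of annotated exons the order of the genes differed between the groups. That length joins all annotated exons of a gene and is not that of 1 transcript, so different genes compare only roughly. On the RPKM scale (CPM per kilobase of exons), Rrm2 led the injured wild type ganglia with a level of 27.8 ± 0.82 RPKM, followed by Ccnb2 (23.9 ± 1.56 RPKM) and Pcna (23.5 ± 2.18 RPKM), and the last pair differed by less than their spread. Pcna led the sham wild type ganglia with 17.4 ± 1.98 RPKM, ahead of Rrm2 at 7.14 ± 4.19 RPKM. The lowest levels in injured wild type ganglia were those of Ttk (0.89 ± 0.22 RPKM) and Cenpf (0.72 ± 0.20 RPKM). Over all 15 libraries the mean level ran from 21.5 RPKM for Pcna to 0.54 RPKM for Cenpf.

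The S phase genes had a median log2 fold change of 1.52 after injury in wild type (11 genes) and the mitosis genes one of 1.70 (23 genes). The ratio of summed mitosis to summed S phase CPM was 1.11, 1.14 and 1.16 in injured wild type libraries, against 0.52, 1.21 and 0.58 in sham wild type libraries. It was 1.05, 1.09 and 1.09 in injured knockout libraries, against 0.87, 0.94 and 0.97 in sham knockout libraries, and 0.99, 1.26 and 1.19 with RU521. The low ratios were those of wild type sham replicates 1 and 3. With sham replicate 2 above the injured libraries, the wild type groups overlapped in this ratio, and the knockout groups did not.

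Injury in knockout ganglia gave smaller differences against knockout sham. Of the 34 genes 3 rose (Mcm5, Mcm6 and Prc1) and 0 fell, where 6.34% of all genes tested rose and 4.57% fell. The median log2 fold change was 0.81, from 0.24 for Tk1 to 1.37 for Cdc20, with a median of -0.01 over all genes tested. Every injured library lay above every sham library in 30 of the 34 genes, which held for 19.7% of all genes tested, and 16 genes had an unadjusted p under 0.05. The number that passed ran widely with the method, from 6 in DESeq2 to 26 in limma-voom with quality weights and 28 in edgeR fitted to the knockout groups alone. Of all 18517 genes, 2905 passed in either direction in DESeq2 and 4412 in limma-voom, against 2021 in the main run. With the knockout groups alone 4102 of 16645 passed. The number of the 34 that passed was 0 without sham replicate 1 or sham replicate 3, and 2 without sham replicate 2. Of all genes, 869 of 19462, 1131 of 19458 and 1388 of 19366 passed in either direction in these runs, in that order. The number of the 34 was 1 without any single injured replicate. Without injured replicates 1, 2 and 3 in turn, 1092 of 19401, 1039 of 19449 and 1257 of 19422 genes passed. The median of the 34 stayed between 0.65 and 0.90 in each alternative run.

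Summed over the list, the level was 847, 949 and 909 CPM in injured knockout libraries, against 413, 594 and 582 CPM in sham knockout libraries, so that the sham libraries stood above those of wild type replicates 1 and 3. Prc1 had 25.5, 23.6 and 25.0 CPM in injured knockout ganglia, against 7.54, 13.2 and 10.5 CPM in sham knockout ganglia (log2 fold change 1.24 ± 0.29, edgeR adjusted p = 0.0131). Mcm6 had 65.9, 64.1 and 58.2 CPM in injured knockout ganglia, against 26.7, 38.7 and 34.2 CPM in sham knockout ganglia (0.92 ± 0.25, edgeR adjusted p = 0.0281). Both groups were tight and clearly apart in these genes. Mcm5 had 24.5, 27.6 and 29.0 CPM in injured knockout ganglia, against 11.4, 12.6 and 13.4 CPM in sham knockout ganglia (1.12 ± 0.32, edgeR adjusted p = 0.0375).

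Other genes described above did not pass in the knockout. Mki67 had 44.9, 52.1 and 45.1 CPM in injured knockout ganglia, against 22.4, 29.6 and 35.8 CPM in sham knockout ganglia (log2 fold change 0.70 ± 0.40, edgeR adjusted p = 0.307). Top2a had 50.2, 48.6 and 44.6 CPM in injured knockout ganglia, against 15.97, 28.4 and 25.9 CPM in sham knockout ganglia (1.03 ± 0.47, edgeR adjusted p = 0.180). Their groups did not overlap although neither passed. Ccnb1 had 20.8, 32.1 and 26.9 CPM in injured knockout ganglia, against 8.97, 14.2 and 14.2 CPM in sham knockout ganglia (1.09 ± 0.47, edgeR adjusted p = 0.161). Cdc20 had 23.7, 23.8 and 28.7 CPM in injured knockout ganglia, against 7.48, 11.7 and 10.3 CPM in sham knockout ganglia (1.37 ± 0.45, edgeR adjusted p = 0.0635). For Pcna, Ccnb2, Birc5, Nusap1 and Nuf2 the log2 fold changes were 0.37 ± 0.14, 0.97 ± 0.47, 0.77 ± 0.36, 0.83 ± 0.39 and 0.88 ± 0.43.

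**Figure D3:**
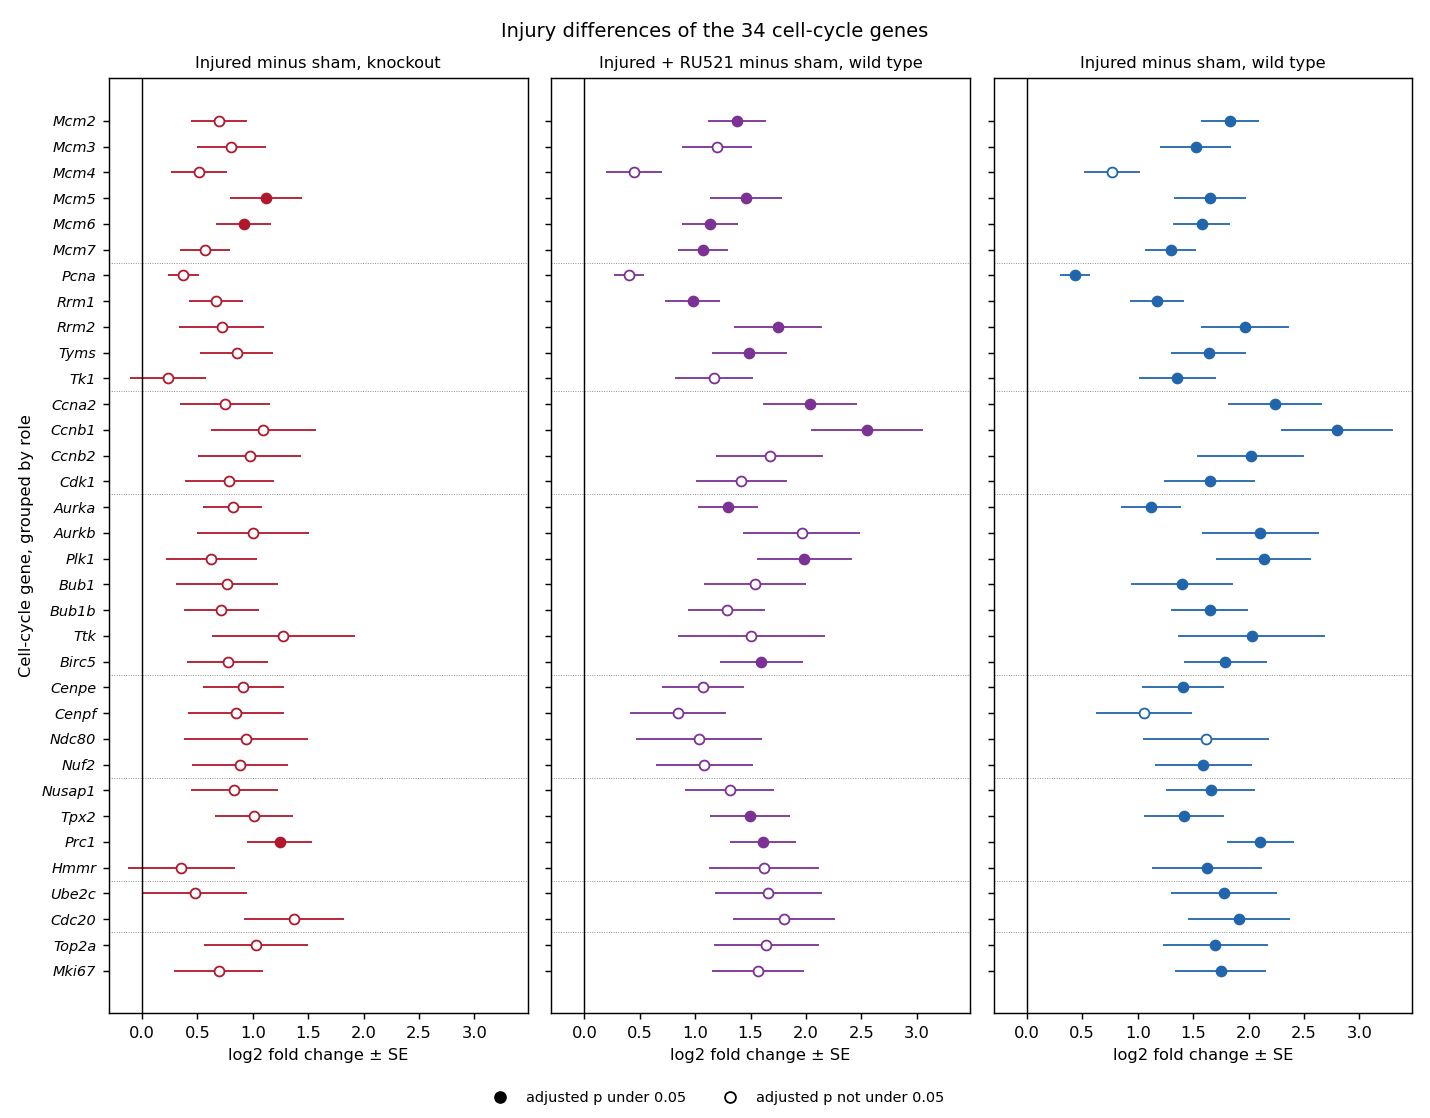
Log2 fold change ± SE (horizontal axis) of each of the 34 genes (rows, grouped by role and separated by dotted lines) for injured minus sham knockout, injured with RU521 minus sham wild type, and injured minus sham wild type ganglia; filled points have an edgeR adjusted p under 0.05 over 18517 genes and open points do not. All values are above 0, with 3, 14 and 31 filled points from left to right.

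The difference between the injury effects was tested directly, as the injury difference in knockout minus that in wild type. No gene of the 34 passed in edgeR, where 0.448% of all genes tested passed in either direction. All 34 estimates were below 0 (median -0.77, median of all genes 0.02), 7 had an unadjusted p under 0.05, and the lowest edgeR adjusted p was 0.261, for Mcm2. The estimate was -1.14 ± 0.36 for Mcm2, -1.71 ± 0.68 for Ccnb1, -1.05 ± 0.57 for Mki67 and -0.67 ± 0.65 for Top2a. For Mki67 the 95% interval ran from -2.26 to 0.15. DESeq2 called 0 and limma-voom with quality weights 21 of the 34 lower, and they called 295 and 1996 of all 18517 genes in either direction. With wild type sham replicate 2 as the only wild type sham library the median of the 34 was -0.24. Without that replicate it was -1.33, and 6 of the 34 genes and 666 of all 19225 tested passed.

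Knockout and wild type were compared within each surgery. In sham ganglia 0 of 34 genes passed in edgeR or in DESeq2 and 24 in limma-voom, all higher in knockout. Of all 18517 genes, 0.135% passed in edgeR, while 259 passed in DESeq2 and 3008 in limma-voom. All 34 differences were above 0 with a median of 0.64 (all genes -0.04), and 13 had an unadjusted p under 0.05. All knockout libraries lay above all wild type libraries in 4 genes (Mcm2, Mcm7, Ccnb1 and Bub1b), which held for 6.65% of all genes tested. Ccnb1 had 8.97, 14.2 and 14.2 CPM in knockout sham ganglia, against 2.13, 7.66 and 3.63 CPM in wild type sham ganglia (log2 fold change with a 95% interval from 0.44 to 2.55, edgeR adjusted p = 0.324, the lowest of the list). The median was 0.08 with replicate 2 as the only wild type sham library and 1.26 without it. In the run without it 15 of the 34 genes passed, and 974 of all 19225 tested.

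In injured ganglia 0 of 34 genes passed in edgeR, DESeq2 or limma-voom, 0 had an unadjusted p under 0.05, and 2.2% of all genes tested passed in edgeR. The median difference was -0.16 (all genes -0.01), with 28 of 34 below 0, and it was 0.29 with detected genes as a covariate. All knockout libraries lay below all wild type libraries in 8 genes (Mcm2, Mcm7, Rrm2, Ccnb2, Plk1, Prc1, Ube2c and Top2a), or in 14.3% of all genes tested. Ube2c had 18.8, 19.8 and 20.8 CPM in knockout injured ganglia, against 26.9, 34.9 and 29.8 CPM in wild type injured ganglia, the largest difference at -0.63 ± 0.46 (95% interval -1.61 to 0.36). For Mki67 the difference was -0.21 ± 0.40 (interval -1.05 to 0.64) and for Ccnb1 -0.21 ± 0.46 (interval -1.19 to 0.77), and both intervals include changes of either sign.

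**Figure D4:**
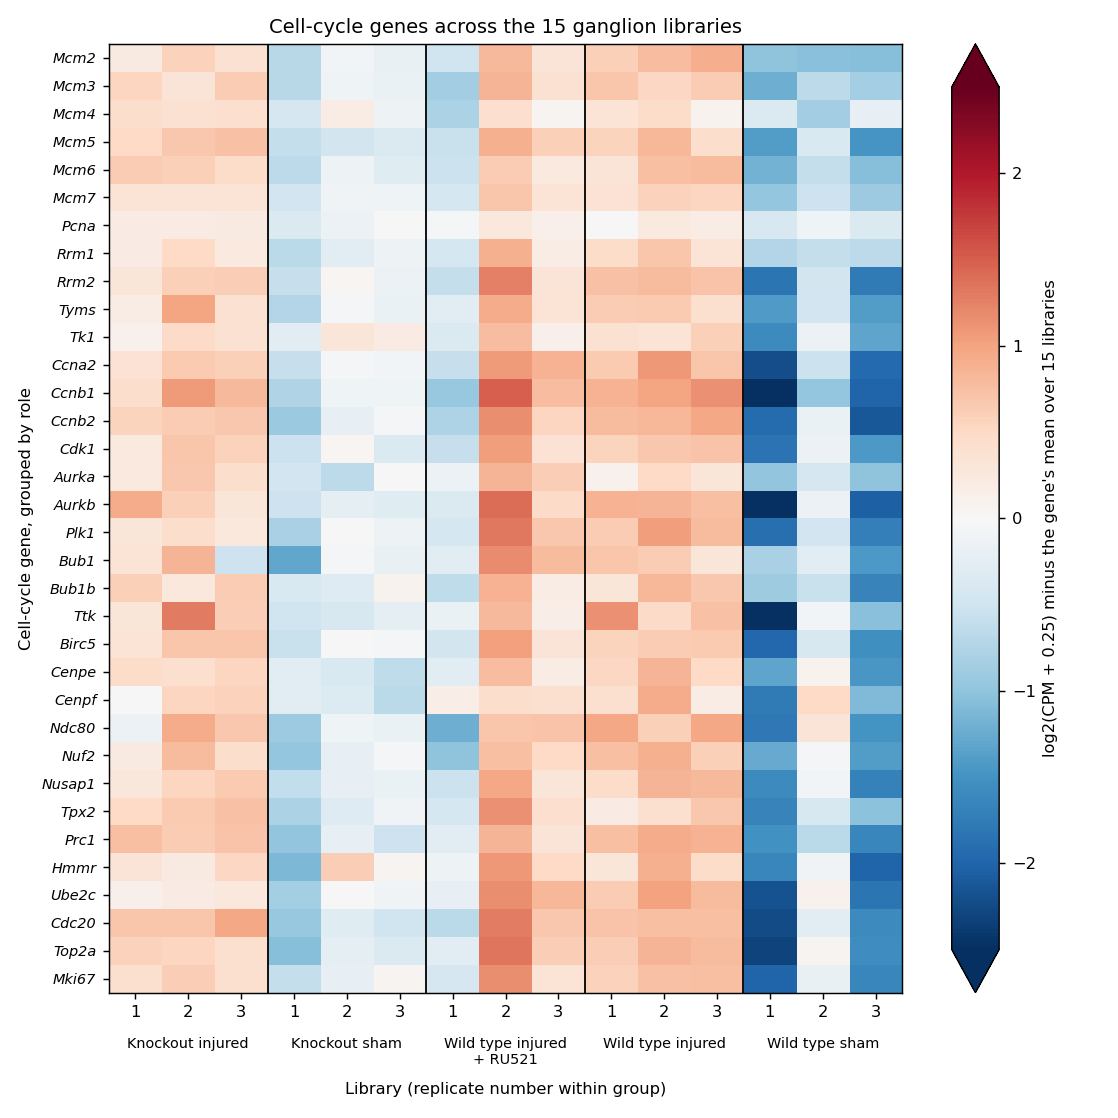
Each of the 34 genes (rows, grouped by role) in each of the 15 libraries (columns, replicate number within group) as log2(CPM + 0.25) minus the gene's mean over the 15 libraries, red above and blue below that mean. Wild type sham replicates 1 and 3 are the bluest columns, wild type sham replicate 2 resembles the knockout sham columns, and RU521 replicate 2 is the reddest.

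RU521 with injury was set against wild type sham, the same sham libraries as above, and against injury alone. Against sham 14 of 34 genes rose (Mcm2, Mcm5, Mcm6, Mcm7, Rrm1, Rrm2, Tyms, Ccna2, Ccnb1, Aurka, Plk1, Birc5, Tpx2 and Prc1) and 0 fell, where 1.85% of all genes tested rose and 0.535% fell. The median log2 fold change was 1.47 (all genes -0.02), from 0.40 for Pcna to 2.55 for Ccnb1. In 11 genes every RU521 library lay above every sham library, which held for 6.8% of all genes tested. The 3 RU521 libraries differed from each other more than those of any other injured group, with summed levels of 470.5, 1254 and 851 CPM. The count was 28 without RU521 replicate 1, 0 without replicate 2 and 3 without replicate 3. It was 3, 33 and 0 without wild type sham replicates 1, 2 and 3 in turn. In those runs 344 of 19481, 2276 of 19225 and 112 of 19456 genes passed in either direction. With replicate 2 as the only sham library the median log2 fold change of the 34 was 0.87. DESeq2 called 27 and limma-voom 33 of the 34, and 1090 and 4589 of all 18517 genes in either direction. Without RU521 replicates 1, 2 and 3 in turn, 1027 of 19410, 129 of 19379 and 205 of 19472 genes passed in edgeR.

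Ccnb1 had 7.78, 43.6 and 26.1 CPM with RU521, against 28.02, 30.5 and 33.8 CPM with injury alone and 2.13, 7.66 and 3.63 CPM after sham surgery (log2 fold change over sham 2.55 ± 0.50, edgeR adjusted p = 0.0138). Prc1 had 12.4, 27.4 and 18.9 CPM with RU521, against 25.8, 28.9 and 28.04 CPM with injury alone and 5.14, 9.40 and 4.76 CPM after sham surgery (1.61 ± 0.30, edgeR adjusted p = 0.0105). In both genes RU521 replicate 1 was the lowest of its group and lay above the highest sham library, for Ccnb1 by a small margin. Mki67 had 25.3, 76.3 and 43.2 CPM with RU521, against 50.5, 56.7 and 57.1 CPM with injury alone and 8.36, 30.01 and 10.8 CPM after sham surgery (1.57 ± 0.41, edgeR adjusted p = 0.0588). Top2a had 27.9, 84.9 and 51.4 CPM with RU521, against 51.7, 60.8 and 58.4 CPM with injury alone and 6.58, 35.2 and 11.2 CPM after sham surgery (1.64 ± 0.47, edgeR adjusted p = 0.0830). For Mki67 and Top2a RU521 replicate 1 lay below sham replicate 2, so that the groups overlapped.

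Against injury alone, 0 of 34 genes passed with RU521 in edgeR or DESeq2, 0 had an unadjusted p under 0.05, and limma-voom called 3 lower. Of all 18517 genes, 9.58% passed in edgeR and 6186 in limma-voom. The median difference was -0.21 (all genes -0.03), with 31 of 34 below 0 and a range from -0.58 for Ndc80 to 0.18 for Aurka. The median was 0.08 without RU521 replicate 1, -0.63 without replicate 2 and 0.27 with detected genes as a covariate. Without RU521 replicate 2, 1 of the 34 genes was lower, where 2727 of all 19379 genes tested passed in either direction. RU521 libraries lay on both sides of the injured libraries for Mki67, Top2a and Ccnb1, with differences of -0.18 ± 0.40 (95% interval -1.03 to 0.66), -0.06 ± 0.46 (-1.03 to 0.91) and -0.25 ± 0.46 (-1.24 to 0.73). The lowest edgeR adjusted p was 0.279, for Mcm2 (-0.46 ± 0.25). In the same comparison 7 of 10 sensory neuron markers were higher and 10 of 10 myelinating Schwann cell markers lower with RU521.

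Other genes of the cell cycle were read from 3 further lists. Of 75 other replication and mitosis genes, all 75 tested, wild type injury raised 37 and lowered 0 (median 1.03), beside 8.6% of all genes tested that rose. The 4 with the smallest p were Mybl2 (B-Myb, an activator of mitotic genes) at 3.19 ± 0.45, Cdca5 (sororin, which holds sister chromatids) at 2.00 ± 0.29, Incenp (scaffold of the passenger complex) at 1.48 ± 0.27 and Cdc6 (loader of the Mcm helicase) at 2.74 ± 0.58. Mybl2 had 3.97, 3.97 and 2.58 CPM in injured ganglia, against 0.39, 0.25 and 0.48 CPM in sham ganglia, so that sham replicate 2 was the lowest here. These sham levels were near the floor, which was 0.13, 0.19 and 0.16 CPM in those libraries, so the size of this change is uncertain. In the knockout 1 of the 75 rose after injury, the histone variant gene H2az1 (0.63 ± 0.16), beside 6.34% of all genes, so that the calls in this list were no more frequent than among all genes. The median log2 fold change of the 75 was 0.58 there, against -0.01 over all genes tested. With RU521 6 of the 75 rose over sham, led by Cdca5 (1.54 ± 0.29) and Mybl2 (2.27 ± 0.45), beside 1.85% of all genes. Their median was 0.74 with RU521, against -0.02 over all genes tested.

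Between the injury effects of knockout and wild type, Mybl2 was the 1 gene of the 75 that passed (-2.93 ± 0.59, edgeR adjusted p = 0.0406). That estimate uses the wild type sham levels near the floor. Mybl2 had 1.94, 3.48 and 1.52 CPM in injured knockout ganglia, against 2.75, 1.31 and 1.73 CPM in sham knockout ganglia. In injured ganglia 1 of the 75 was higher in knockout, Pttg1 (securin, the guard of sister separation), with 79.6, 48.4 and 47.7 CPM in knockout against 31.1, 27.0 and 30.8 CPM in wild type (0.98 ± 0.19). Dut, which removes dUTP, was the 1 gene higher with RU521 than with injury alone (0.54 ± 0.12). Of all genes tested, 0.448% passed between the injury effects, 2.2% between knockout and wild type in injured ganglia, and 9.58% between RU521 and injury alone. A single call among the 75 is no sign of a change of that list.

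Of 20 G1 cyclins, kinases and E2F factors, wild type injury raised 5 and lowered 1 (median 0.46), beside 8.6% of all genes tested that rose and 7.98% that fell. E2f8, a repressor-type E2F factor of cycling cells, rose by 2.36 ± 0.43, Ccnd3 (cyclin D3) by 1.25 ± 0.25 and Cdk2 by 1.81 ± 0.41, while E2f6 fell by 1.07 ± 0.23 on the log2 scale. Ccnd3 had 146, 142 and 141 CPM in injured ganglia, against 42.8, 81.1 and 56.6 CPM in sham ganglia. In the knockout 0 rose and E2f1 alone fell (-1.13 ± 0.32), with RU521 E2f8 alone rose over sham (2.12 ± 0.43), and Cdk4 alone was higher with RU521 than with injury alone (0.75 ± 0.15). These single calls stand beside 4.57% of all genes that fell in the knockout, 1.85% that rose with RU521 over sham and 9.58% that passed between RU521 and injury alone, and are near those shares.

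The last list held 19 CDK inhibitors, pocket proteins and related genes, not all of which restrain the cycle (Mdm2 and Lin9 are on it). Of these, 18 were tested (Cdkn2a was not), and 7 rose, 0 fell and 11 did not pass in wild type (median 0.46), beside 8.6% of all genes that rose. Cdkn1a (p21, a p53 target that inhibits Cdk2) rose by 0.92 ± 0.14, the antiproliferative gene Btg2 by 1.60 ± 0.29, the pocket protein gene Rbl1 by 1.55 ± 0.31 and Cdkn2b (p15) by 0.70 ± 0.18. In the knockout 4 of the 18 rose, beside 6.34% of all genes, led by Cdkn1a (1.08 ± 0.14) and Btg1 (0.87 ± 0.16). Cdkn1a had 244, 280 and 243 CPM in injured knockout ganglia, against 119, 129 and 113 CPM in sham knockout ganglia. With RU521, Cdkn1a had 122, 138 and 129 CPM, against 197, 248 and 238 CPM with injury alone (-0.81 ± 0.14). Of the 18, 4 were lower with RU521 than with injury alone, also Cdkn2b (-0.95 ± 0.18). Among all 18517 genes, 830 were lower in that comparison, and 9.58% passed in either direction. Over wild type sham, 1 of the 18 rose with RU521, Btg2 (1.35 ± 0.29), beside 1.85% of all genes.

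Markers of neutrophil precursors, and those of neutrophils, were highest and lowest in the same libraries as the cell-cycle genes. The low end was not particular to them. Wild type sham replicates 1 and 3 were also lowest in summed macrophage, red blood cell, erythroid precursor, and T and NK cell markers. Summed neutrophil precursor markers (Elane, Mpo, Prtn3, Ctsg, Ms4a3 and Fcnb, of which Mpo and Elane encode granule enzymes made before neutrophils mature) were at 419, 514 and 497 CPM in injured and 132, 204 and 206 CPM in sham knockout libraries. They were at 181, 737 and 436 CPM with RU521, at 416, 396 and 396 CPM in injured wild type, and at 55.7, 145 and 64.9 CPM in sham wild type libraries. After injury 5 of 6 rose in wild type, 4 of 6 in knockout and 6 of 6 with RU521. The shares of all genes tested that rose in these 3 comparisons were 8.6%, 6.34% and 1.85%. RU521 replicate 2 was the highest library and wild type sham replicates 1 and 3 the lowest, as for the cell-cycle genes. The same held for summed neutrophil markers, at 10051 CPM in RU521 replicate 2 and at 783 and 928 CPM in wild type sham replicates 1 and 3. Injured libraries were ordered differently. Precursor sums were higher in injured knockout than in injured wild type, by little at the nearest. Cell-cycle sums ran lower in injured knockout, at 847 to 949 CPM against 929 to 1065 CPM.

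Summed erythroid precursor markers (10 genes led by Slc4a1, with Ahsp not tested) were at 262, 289 and 288 CPM in injured and 172, 256 and 271 CPM in sham knockout libraries. They were at 172, 523 and 336 CPM with RU521, at 404, 577 and 505 CPM in injured wild type, and at 47.4, 151 and 57.8 CPM in sham wild type libraries. Of the 9 tested, 9 rose in wild type, 0 in knockout and 6 with RU521, beside 8.6%, 6.34% and 1.85% of all genes tested. Slc4a1, the anion exchanger of red cells, rose by 2.52 ± 0.43 on the log2 scale in wild type. The lowest levels in any library were 19.5 CPM for Slc4a1, 23.3 CPM for Mpo and 10.6 CPM for Elane, all in wild type sham replicate 1 and all above the floor.

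Markers of the other cell types differed in how many rose. Of all genes tested, 8.6% rose after injury in wild type, 6.34% in knockout and 1.85% with RU521. Neutrophil markers, led by S100a8 and Ngp, rose in 10, 5 and 10 of 10 cases after injury in wild type, in knockout and with RU521, with sums of 6173 to 7813 CPM in injured against 783 to 2433 CPM in sham wild type libraries. Macrophage and microglia markers, led by Lyz2 and Ctss, rose in 11, 10 and 1 of 12 cases, with sums of 2563 to 2708 CPM in injured against 342 to 1050 CPM in sham wild type libraries. Haemoglobin and heme markers of red blood cells (Hbb-bs and Hba-a1 highest) rose in 5, 0 and 0 of 5 cases. B lineage markers rose in 0 of 9 in each of the 3 comparisons, and T and NK cell markers in 1, 3 and 0 of 8. Among resident cells, satellite glia markers rose in 2 and fell in 1 of 8 cases in wild type, fibroblast markers rose in 3 of 5, endothelial in 1 of 6, myelinating Schwann cell in 5 of 10 and injured Schwann cell in 1 of 5 tested, and sensory neuron markers fell in 8 of 10, beside 8.6% of all genes that rose and 7.98% that fell. A single call among 5 to 8 markers is no sign of a change of that list. Summed myelinating Schwann cell markers were at 22284 to 24136 CPM in injured wild type libraries, against 16481 CPM in sham replicate 2 and at most 13127 CPM in each of the other libraries. In the knockout 4 of 10 sensory neuron markers and 2 of 8 satellite glia markers fell after injury, and with RU521 4 of 10 myelinating Schwann cell markers were lower than after sham surgery, beside 4.57% and 0.535% of all genes that fell. The summed B lineage markers were highest in wild type sham replicate 2, at 95.6 CPM. The 6 neutrophil precursor markers were above the floor in every library, and whether the cell-cycle transcripts came from cells of the ganglion or from blood or marrow cells collected with it was not tested. The part of these cell types in the differences of the cell-cycle genes was not tested.

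**Figure D5:**
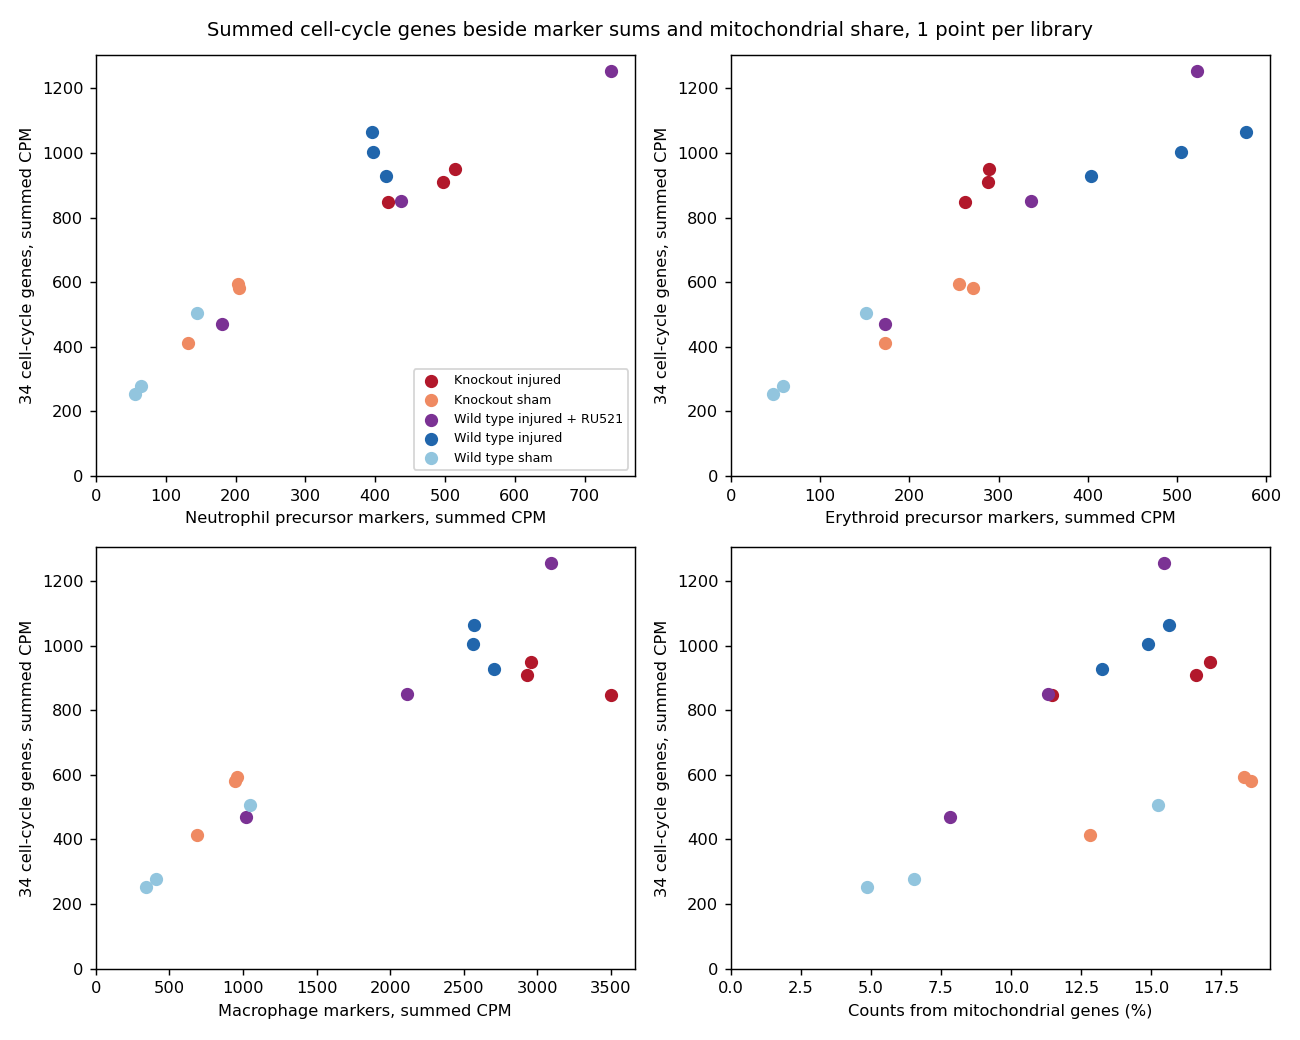
Summed CPM of the 34 cell-cycle genes (vertical axis) against the summed CPM of neutrophil precursor, erythroid precursor and macrophage markers and the percentage of counts from mitochondrial genes (horizontal axes), 1 point per ganglion library coloured by group. Wild type sham replicates 1 and 3 lie lowest in the 4 panels, and RU521 replicate 2 has the highest cell-cycle sum (1254 CPM) and the highest neutrophil precursor sum (737 CPM).

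Processed copies of these genes in the genome could take reads from them. Of 5 listed copies (Pcna-ps2, Tyms-ps, Ccnb1-ps, Mcm3-ps and Rrm2-ps) only Pcna-ps2 had enough counts to be tested, at 0.86, 1.32 and 0.84 CPM in injured against 0.70, 1.18 and 0.59 CPM in sham wild type libraries, and it passed in 0 comparisons.

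The series also holds 12 libraries of picked retinal ganglion cells after optic nerve injury, in 4 groups of 3: Ptpn2 KO with IFNγ injected into the eye, Ptpn2 KO with PBS, wild type with IFNγ and wild type with PBS, where the knockout was made by AAV-Cre in floxed mice. They are described together as 12 single libraries, without a comparison, with 13239988 to 17122057 counts. Retinal ganglion cells are neurons and do not divide. There Pcna, Rrm1 and Mcm7 were above the floor of 3 counts in 12 of 12 libraries, with medians of 52.2, 25.0 and 24.2 CPM. Mki67, Top2a and Ccnb1 were above it in 3, 2 and 4 of 12 libraries, 19 of the 34 genes had a median of 0 CPM, and Aurkb was at 0 in all 12. A count of 0 allows up to 3 counts in a library. The retinal and ganglion tables were counted separately and no level was compared between them.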

How the data were processed

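Raw counts per gene of 15 ganglion libraries and 12 retinal libraries were used as the authors deposited them. The submitters' processing notes name Trim Galore, STAR and the builds GRCm38 and mm10, without tool versions. Ganglion reads were assigned to exons of Ensembl release 101 by featureCounts 2.0.1 at a mapping quality of 10 or more, without strand, per the file headers. Of 20 alignment files in that header, 15 appear as columns. A last line of the retinal table that names no gene and holds the column sums was left out. Other values computed here were CPM, log2 fold changes and, with the gene lengths (bp) deposited in the same table, RPKM.

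Groups came from the labels. edgeR 4.0.16 in R 4.3.3 fitted all 15 ganglion libraries together (TMM, filterByExpr with a minimum count of 10 and total of 15, robust quasi-likelihood, biological coefficient of variation 0.262), with Benjamini-Hochberg adjusted p under 0.05 over 18517 genes. SE is the log2 fold change divided by the root of the F statistic, and 95% intervals use it. The 34 genes, the other lists and the comparisons were chosen with earlier results of these data known. Values in every library are given for Mki67, Top2a, Ccnb1 and the gene with the highest mean RPKM of each role, and by value for the genes with the largest and smallest change; further genes (such as Mcm2, Mcm5, Prc1, Rrm2, Plk1, Ttk, Ndc80 and Ube2c) were given in full after their values were seen. In the other lists the smallest p-values after wild type injury were named.

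Alternatives were DESeq2 (1.42.0) as a test and for size factors alone, an unfiltered table, limma-voom (limma 3.58.1) with quality weights, the compared groups alone, the replicate number as a block, detected genes as a covariate, and leaving out libraries. No 2 libraries were identical, and pairs within a group differed beyond counting noise.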

Additional observations from a re-analysis of the deposited data

How the results depend on the processing

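No called value changed sign under any alternative run (434 of 434 values for injury in wild type, 39 of 39 in knockout and 196 of 196 with RU521), and sign changes of values not called were not counted. Of the 34 genes, those that rose after injury in wild type numbered 31, and 31 to 34 with DESeq2 size factors, no low count filter, DESeq2, limma-voom or the replicate block. They numbered 19 with the compared groups alone, 8 with detected genes as a covariate, 3 without sham replicates 1 and 3, and 14 to 33 with 1 library left out. Of all 18517 genes, 3070 passed in either direction for injury in wild type in the main run, 4110 with DESeq2 and 9257 with limma-voom. With the compared groups alone 1702 of 17047 passed. After injury in knockout 3 of the 34 rose, against 19 with no filter, 6 with DESeq2, 26 with limma-voom, 28 with the compared groups alone, 12 with the covariate and 0 to 2 with 1 library left out. Of all genes, 2509 of 49427 passed there with no filter and 3070 of 18517 with the covariate. With RU521 over sham 14 of the 34 rose, against 31 with no filter, 27 with DESeq2 and 33 with limma-voom. The number was 0 with the compared groups alone, 24 with the covariate and 0 to 33 with 1 library left out. Of all 18517 genes, 442 passed there in the main run, 1090 with DESeq2, 4589 with limma-voom and 1169 with the covariate. With no filter 1344 of 49427 passed, and with the compared groups alone 10 of 16534. Knockout over wild type in sham gave 0 of the 34 genes, against 9 with no filter, 24 with limma-voom and 0 to 15 with 1 library left out. Of all genes, 25 of 18517 passed there in the main run, 596 of 49427 with no filter and 3008 of 18517 with limma-voom. In injured ganglia 1 of the 34 was lower in knockout with the compared groups alone, where 1877 of 16928 genes passed. With RU521 against injury alone 3 of the 34 were lower with limma-voom and 0 to 1 with 1 library left out. Of all genes, 6186 of 18517 passed there with limma-voom, and 2727 of 19379 in the run with the single call. The interaction gave 0 of the 34, against 6 lower with no filter, 21 with limma-voom and 0 to 6 with 1 library left out. Of all genes, 83 of 18517 passed there in the main run, 423 of 49427 with no filter and 1996 of 18517 with limma-voom. The cause of these differences was not tested.

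With the replicate number as a block 33, 12 and 25 of the 34 genes rose after injury in wild type, in knockout and with RU521. Of all 18517 genes, 3525, 2478 and 578 passed there in either direction. In each of the other comparisons 0 of the 34 passed. Correlations between same-numbered libraries of different groups ran from -0.12 to 0.27, 6 of 30 were over 0.1, and in 0 of 10 pairs of groups were all 3 over 0.1. The numbers were therefore taken as names only. The 6 were all of replicates 1 and 2 among the wild type sham, knockout sham and RU521 groups. Whether those libraries share a factor was not tested. The median log2 fold change ran from 0.91 to 2.25 for injury in wild type, 0.65 to 0.90 in knockout, 0.87 to 1.94 with RU521, and -1.37 to -0.24 for the interaction. Precision is limited by 3 libraries per group.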
